A study of Homo sapiens with 12 samples.

Results

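The 10 genes described here, GAS5, SNHG1, SNHG5, SNHG6, SNHG7, SNHG8, SNHG12, SNHG15, SNHG16 and ZFAS1, are host genes of small nucleolar RNAs (snoRNAs). They were chosen by name from the 26485 genes of the count table, and all 10 were among the 17176 genes that passed the filter on low counts. RNA-seq was performed on poly(A)-selected RNA of HEK293 cells, a human embryonic kidney line, labelled wild type. The cells were transiently transfected with PEG10 gag-pol, PEG10 gag, the PEG10 nucleocapsid (NC) or a control plasmid that the labels call LifeAct-Dendra2, an actin-binding peptide fused to a fluorescent protein. Each of the 4 constructs was sequenced in 3 libraries from separate passages, and per the methods cells were collected 48 hr after transfection. PEG10 is a domesticated retroelement gene whose gag holds a capsid and a zinc finger, whose pol adds a protease that can cut gag, and whose nucleocapsid is the zinc finger fragment alone. The study asked whether liberated nucleocapsid alters transcription. The share of cells that took up plasmid was not given in the sources used here, so each library is a mixture of transfected and untransfected cells, and fewer expressing cells and less RNA per cell cannot be told apart.

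snoRNA host genes are spliced, and the snoRNA is cut out of an intron after splicing. Box C/D snoRNAs (named SNORD) guide ribose methylation of ribosomal RNA, and H/ACA snoRNAs (named SNORA) guide pseudouridylation. In this group of hosts the spliced exons carry no conserved protein. The transcripts of several of them, GAS5 best known among them, begin with a terminal oligopyrimidine (TOP) tract like those of ribosomal protein mRNAs, are loaded on ribosomes, and are destroyed there by nonsense-mediated decay (NMD). The level of the spliced RNA thus reflects transcription, translation and decay together. Poly(A)-selected libraries count this spliced RNA and not the mature snoRNA, which has no poly(A) tail.

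By span in the RefSeq gene table, the 10 genes held 37 snoRNA genes, 28 named SNORD and 8 named SNORA. GAS5 held 11 and SNHG1 held 9. SNHG12 held 4, SNHG16 and ZFAS1 held 3 each, SNHG5 and SNHG7 held 2 each, and SNHG6, SNHG8 and SNHG15 held 1 each. One snoRNA of each of the 4 hosts that changed most often between constructs is printed, on the strand of its host. Its sequence is that of the GENCODE transcript, given with its GRCh38 position. The capitals mark the C box (only where the search found it) and the D box of a SNORD, and the terminal ACA of a SNORA.
SNORA9 (in SNHG15, chr7:44985378-44985510, minus strand): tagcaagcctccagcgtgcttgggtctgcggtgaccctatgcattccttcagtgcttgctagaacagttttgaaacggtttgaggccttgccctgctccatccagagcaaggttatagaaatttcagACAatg
SNORA61 (in SNHG12, chr1:28579764-28579893, minus strand): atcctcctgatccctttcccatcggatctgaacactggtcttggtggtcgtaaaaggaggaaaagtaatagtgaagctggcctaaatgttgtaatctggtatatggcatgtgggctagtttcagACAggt
SNORD25 (in SNHG1, chr11:62855564-62855632, minus strand): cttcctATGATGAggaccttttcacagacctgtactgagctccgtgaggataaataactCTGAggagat
SNORD1C (in SNHG16, chr17:76558791-76558868, plus strand): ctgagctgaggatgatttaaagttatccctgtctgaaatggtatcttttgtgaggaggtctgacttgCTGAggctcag
SNORA61, SNORD25 and SNORD1C lie in introns of the Ensembl canonical transcript of their host. SNORA9 overlaps an exon of the canonical SNHG15 transcript, so that reads over it cannot be told apart from reads of the host. The same limit holds for SNORD25, since the exons of all annotated SNHG1 transcripts together cover the whole 3976 bases of that gene. In SNHG12 such exons cover 4266 of 4595 bases, and whether SNORA61 lies in them was not tested.

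The start sites are shown next, because a TOP tract at the start is a feature that some of these genes share with ribosomal protein genes. Each line holds 15 bases on either side of the start of the canonical transcript (GRCh38, transcript strand). The capitals mark a run of at least 5 pyrimidines that begins with C, within 10 bases of the start. The starts of SNHG6 and SNHG12 are not printed.
SNHG16 (chr17:76557760-76557789, plus strand): tctcgcgttCTTTTCgaggtcggccgcgtg
GAS5 (chr1:173867975-173868004, minus strand): caggcaccatactgtCTTTTCgaggtagga
ZFAS1 (chr20:49278627-49278656, plus strand): aggaagccattcgttCTTTCgcgtctgcgg
SNHG1 (chr11:62855908-62855937, minus strand): cccgtgggCCTCTgcggcatggtatttaat
SNHG7 (chr9:136728170-136728199, minus strand): gcttcCCTTCTCgtcctctgcgtgcgccgg
SNHG8 (chr4:118278693-118278722, plus strand): tcgcggcgCTTCCCCCggaatagcgtcatc
SNHG5 (chr6:85678734-85678763, minus strand): tataaggagctactggctgcgcacttcggt
SNHG15 (chr7:44986947-44986976, minus strand): caggaaggcaccacccattaggggctcagc
Such a run was present near 7 of the 10 starts (70%), against 75 of 79 cytosolic ribosomal protein genes (94.9%), 6 of 16 other noncoding snoRNA host genes (37.5%) and 7619 of 23161 genes with a canonical transcript (32.9%). The run began at the annotated start itself in GAS5 and ZFAS1, among those printed. In SNHG16, SNHG1 and SNHG7 it began at -6, -7 and -10 and lay wholly upstream of the annotated start. The annotated start need not be the one used in HEK293 cells, and a missing run says only that these letters were not in this window.

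Total counts ranged from 30625725 to 45316749 per library, and the 10 genes together made up between 0.0919% and 0.112% of them. Of all counts, PEG10 itself took 0.023% to 0.0346% in control libraries and 0.238% to 0.389% in NC libraries, whose construct is shorter, against 3.78% to 6.1% (gag) and 2.8% to 7.35% (gag-pol). Of the HEK293 markers NEFL, INA, VIM and PAX2 were expressed (from 12.9 CPM upward, counts scaled by library size) and NEFM was low (1.05 to 3.36 CPM). The leukocyte marker PTPRC, the endothelial marker PECAM1 and the hepatocyte marker ALB stayed at or below 1.46 CPM. NEFL was higher (log2 0.56; adjusted p = 0.0087) and ALB lower (log2 -2.10; adjusted p = 0.013, edgeR) with gag-pol against control. NEFL (log2 0.75; adjusted p = 0.0024) and VIM (log2 0.36; adjusted p = 0.0097, edgeR) were higher with NC against control. The part of these markers in the results was not tested.

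In RPKM (counts scaled by annotated exon length and library size), SNHG16 had the highest level, 34.8 ± 3.79 (SD over the 12 libraries), and SNHG8 the lowest, 2.99 ± 0.306. GAS5 followed at 31.5 ± 3.50 and SNHG7 at 25.9 ± 3.87. SNHG1 (21.5 RPKM), ZFAS1 (20.6 RPKM), SNHG15 (20.0 RPKM) and SNHG6 (18.8 RPKM) came next, then SNHG12 (11.6 RPKM) and SNHG5 (6.94 RPKM). The gap between SNHG16 and GAS5, and each gap between neighbours from SNHG1 to SNHG6, was smaller than the SD of either gene, and the other neighbours in this order stood further apart than that. The order depends on the length used: with the length of the canonical transcript SNHG5 rose from rank 9 to rank 4 and SNHG1 from rank 4 to rank 3, while SNHG16 and SNHG8 kept ranks 1 and 10 and GAS5 rank 2. By CPM, which ignores length, the genes lay between 19.8 (SNHG8) and 201 (SNHG16), and SNHG16 was above 95% of the genes tested.

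**Figure D1:**
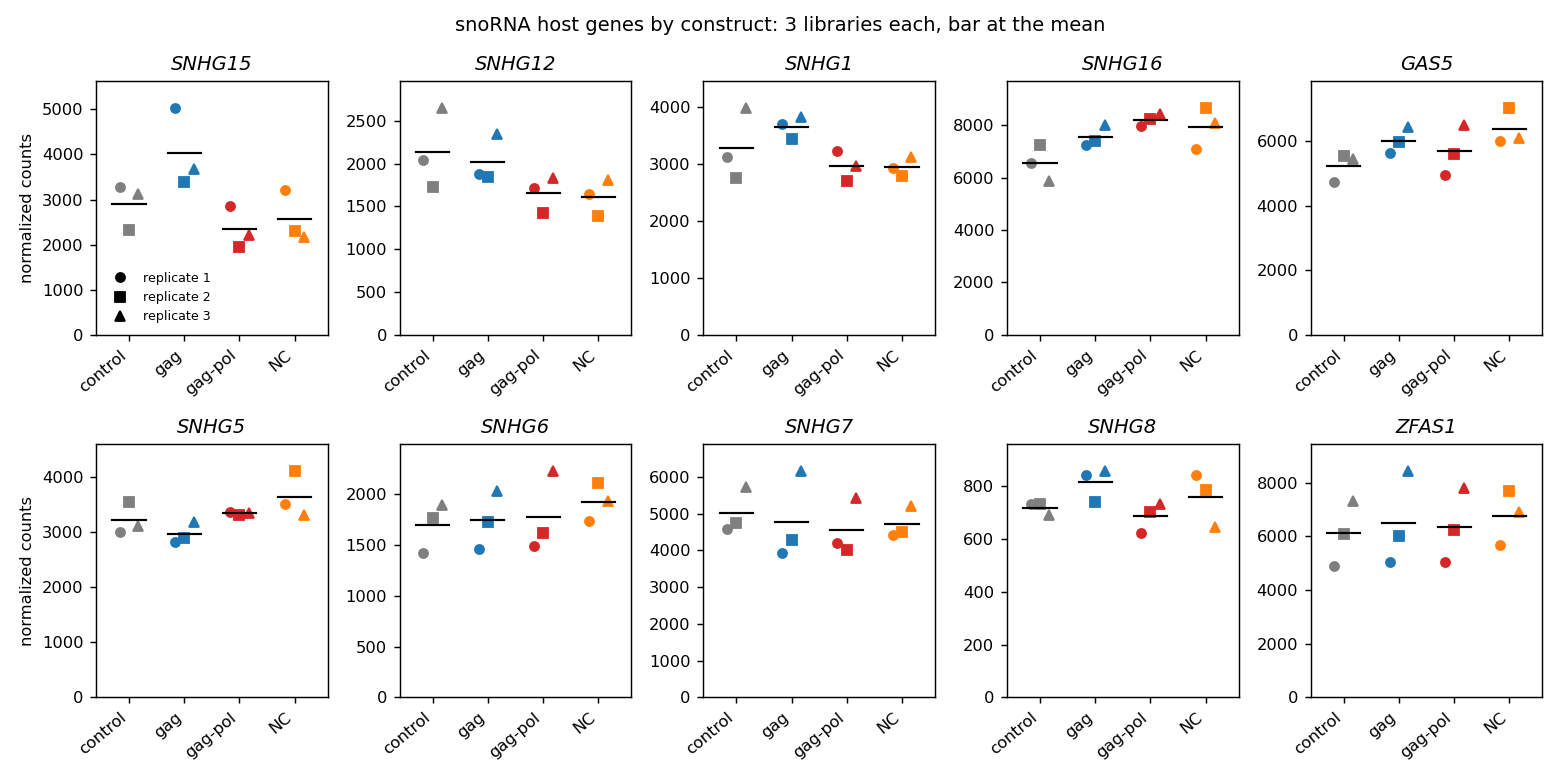
Normalized counts (y axis, from 0) of the 10 host genes in the 12 libraries by construct; circles, squares and triangles are replicates 1, 2 and 3, and the bar is the mean of 3 libraries. SNHG15 is highest in the 3 gag libraries, SNHG12 is lower with gag-pol and NC, and ZFAS1 is lowest in replicate 1 of every construct.

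SNHG15 showed the largest differences between constructs among the 10 genes. SNHG15 is a short H/ACA host described as a transcript of low stability that accumulates in stressed cells. Normalized counts (counts scaled to a common library of 37579200) of replicates 1 to 3 were 3279, 2328 and 3115 in control cells and 5027, 3390 and 3681 with gag. They were 2862, 1946 and 2204 with gag-pol, and 3210, 2301 and 2160 with NC. Every gag library was above every library of the other 3 constructs, whose ranges overlapped one another. Mean levels were 2907 ± 508 (SD, n = 3) in control, 4033 ± 873 with gag, 2338 ± 472 with gag-pol and 2557 ± 570 with NC.

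In gag-transfected cells SNHG15 rose 1.38-fold over control (log2 0.46, SE 0.09; adjusted p = 0.0072, quasi-likelihood test of edgeR, Benjamini-Hochberg adjusted over all genes tested), with log2 ratios of 0.62, 0.54 and 0.24 in replicates 1, 2 and 3. It was the single gene of the 10 that passed the test in this comparison, where 1.08% of all genes tested did. GAS5 (log2 0.20, SE 0.08) and SNHG16 (log2 0.21, SE 0.08) each had an adjusted p of 0.24 by edgeR, and SNHG8 (log2 0.18, SE 0.12) one of 0.54. The gag and control libraries of GAS5, SNHG16 and SNHG8 did not overlap either. The share of all genes without overlap was not computed in this or any other comparison, so overlap is given as description only. The SNHG15 call was lost without control replicate 1 (log2 0.38, adjusted p = 0.14, edgeR), control replicate 2 (log2 0.41, adjusted p = 0.097) or gag replicate 1 (log2 0.43, adjusted p = 0.13). The median log2 fold change of the 10 genes was 0.12, and that of all genes tested was 0.003.

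With gag-pol, 3 of the 10 genes passed the test against control, where 11.3% of all genes did. SNHG12 and SNHG15 fell and SNHG16 rose. SNHG12, host of H/ACA and C/D snoRNAs on chromosome 1, had normalized counts of 2046, 1723 and 2647 in control cells and of 1716, 1422 and 1828 with gag-pol. SNHG12 libraries overlapped between the constructs, but each gag-pol library was below the control library of its own replicate number. The fitted change was 0.781-fold (log2 -0.36, SE 0.09; adjusted p = 0.0095, edgeR). SNHG16, host of the SNORD1 snoRNAs, had 6536, 7241 and 5850 normalized counts in control cells and 7974, 8234 and 8426 with gag-pol. Those groups did not overlap, and SNHG16 was 1.26-fold higher (log2 0.33, SE 0.08; adjusted p = 0.011, edgeR). SNHG15 was 0.799-fold of control (log2 -0.32, SE 0.09; adjusted p = 0.02, edgeR), with overlapping groups. All of these calls were lost without control replicate 3, which was the highest control library for SNHG12 and the lowest for SNHG16: log2 values were then -0.28 for SNHG12 (adjusted p = 0.08, edgeR), -0.19 for SNHG15 (0.21) and 0.23 for SNHG16 (0.095). Leaving out gag-pol replicate 3 ended the SNHG12 call (adjusted p = 0.066), leaving out gag-pol replicate 1 the SNHG16 call (0.06), and leaving out any single gag-pol library the SNHG15 call (0.061 to 0.068, edgeR).

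With NC, 3 of the 10 genes again passed the test against control, beside 11.2% of all genes. GAS5 and SNHG16 rose and SNHG12 fell. GAS5, the host with the most snoRNAs, had normalized counts of 4731, 5547 and 5465 in control cells and of 6009, 7031 and 6119 with NC. Every NC library was above every control library for GAS5, and the fitted change was 1.22-fold (log2 0.29, SE 0.08; adjusted p = 0.022, edgeR). SNHG12 had 1643, 1388 and 1807 normalized counts with NC, close to its gag-pol values, and was 0.76-fold of control (log2 -0.40, SE 0.09; adjusted p = 0.0065, edgeR). SNHG16 had 7087, 8647 and 8065 normalized counts with NC and was 1.21-fold higher than control (log2 0.28, SE 0.08; adjusted p = 0.031, edgeR). SNHG15 had a log2 value of -0.19 that did not pass (adjusted p = 0.16, edgeR). Of these calls, GAS5 was lost without any single control library or without NC replicate 1 or 2 (adjusted p = 0.056 to 0.1, edgeR), SNHG12 without control replicate 3 (0.066), and SNHG16 without control replicate 3 (log2 0.18, adjusted p = 0.24), NC replicate 2 (0.1) or NC replicate 3 (0.12). The 3 comparisons with control share the same control libraries, so that likeness between gag-pol and NC in them is not independent.

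**Figure D2:**
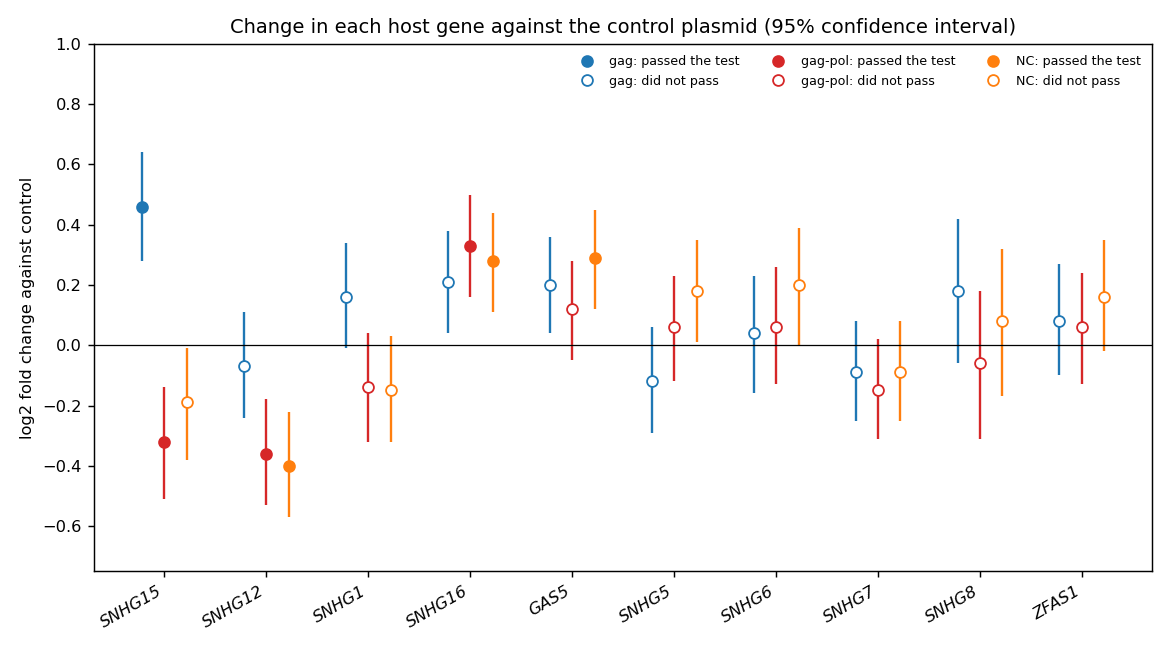
Log2 fold change against the control plasmid (y axis) of each of the 10 host genes, by construct, with 95% confidence intervals from the edgeR fit; filled points passed the test. SNHG15 lies at 0.46 with gag and at -0.32 with gag-pol, and SNHG12 lies near -0.4 with gag-pol and NC.

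The comparison of gag-pol with gag bears on what the pol region adds. Here 3 of the 10 genes passed the test, beside 6.46% of all genes, and all 3 fell: SNHG15, SNHG1 and SNHG12. SNHG15 was 0.581-fold of its level with gag (log2 -0.78, SE 0.09, 95% interval -0.97 to -0.60; adjusted p = 3.8e-05, edgeR), and its log2 ratios of -0.81, -0.80 and -0.74 in replicates 1 to 3 were nearly equal. SNHG1, host of 8 SNORD snoRNAs, had normalized counts of 3702, 3436 and 3827 with gag and of 3233, 2699 and 2970 with gag-pol. These groups did not overlap, while the control libraries of SNHG1 (3119, 2754 and 3984) spanned both. SNHG1 was 0.812-fold of gag (log2 -0.30, SE 0.09; adjusted p = 0.038, edgeR). SNHG12 had 1877, 1842 and 2349 normalized counts with gag, all above gag-pol, and was 0.818-fold (log2 -0.29, SE 0.09; adjusted p = 0.045, edgeR). The SNHG15 call held without each library in turn (log2 -0.81 to -0.75). The SNHG1 call was lost without control replicate 1, gag-pol replicate 2 or 3, any gag library, or NC replicate 1 or 3 (log2 -0.33 to -0.23, adjusted p = 0.05 to 0.26), and the SNHG12 call without any of those, control replicate 2 or gag-pol replicate 1 (log2 -0.35 to -0.23, adjusted p = 0.058 to 0.25, edgeR).

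Free nucleocapsid against whole gag gave the most calls of any pair of constructs, 4 of the 10 genes, beside 16.9% of all genes tested. SNHG15, SNHG12 and SNHG1 fell and SNHG5 rose. SNHG15 was 0.635-fold of gag (log2 -0.65, SE 0.09, 95% interval -0.84 to -0.47; adjusted p = 2.6e-04, edgeR), with log2 ratios of -0.65, -0.56 and -0.77 in replicates 1, 2 and 3. SNHG12 had log2 -0.33 (SE 0.09; adjusted p = 0.012, edgeR) and SNHG1 log2 -0.31 (SE 0.09; adjusted p = 0.016, edgeR). None of these 3 genes overlapped between NC and gag; SNHG1 had 2929, 2789 and 3127 normalized counts with NC. SNHG5, a host of SNORD50 snoRNAs, had normalized counts of 2822, 2885 and 3176 with gag and of 3505, 4107 and 3310 with NC. Its groups did not overlap either, and SNHG5 was 1.23-fold higher with NC (log2 0.29, SE 0.08; adjusted p = 0.019, edgeR). The SNHG15 call again held without each library in turn (log2 -0.72 to -0.55). The SNHG1 call was lost without gag replicate 1 or 2 or NC replicate 1 or 3 (adjusted p = 0.068 to 0.089, edgeR), the SNHG5 call without gag replicate 1 or 2 or NC replicate 1 or 2 (0.072 to 0.15), and the SNHG12 call without gag replicate 2 (0.089) or NC replicate 3 (0.062).

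Between NC and gag-pol no host gene passed the test, where 0.0873% of all genes (15 of 17176) did by edgeR, and 1 of the 10 had an unadjusted p under 0.05. That gene was GAS5, with log2 0.17 (SE 0.08, 95% interval 0.01 to 0.33; adjusted p = 0.49, edgeR). For SNHG15 the interval of the difference ran from -0.05 to 0.31, for SNHG12 from -0.22 to 0.14 and for SNHG1 from -0.19 to 0.17, so differences of that size in either direction could not be told from 0. DESeq2 also called none.

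With gag-pol plus NC set against gag plus control, 5 of the 10 genes passed the test, beside 24.7% of all genes. SNHG15 (log2 -0.49, SE 0.06; adjusted p = 3.1e-05), SNHG12 (log2 -0.34, SE 0.06; adjusted p = 4.4e-04) and SNHG1 (log2 -0.22, SE 0.06; adjusted p = 0.01, edgeR) fell. SNHG16 (log2 0.20, SE 0.06; adjusted p = 0.015, edgeR) and SNHG5 (log2 0.18, SE 0.06; adjusted p = 0.033, edgeR) rose. The same libraries enter the pairwise comparisons above, so these values restate them with more libraries on each side. SNHG15, SNHG12 and SNHG1 passed without each library in turn, SNHG16 did not without gag replicate 2 (log2 0.17, adjusted p = 0.058, edgeR), and SNHG5 did not without control replicate 1 or 3, gag-pol replicate 1 or 3, gag replicate 1 or 2, or NC replicate 1 or 2 (log2 0.14 to 0.18, adjusted p = 0.062 to 0.12). In the test for any difference among the 4 constructs, 5 of the 10 genes passed, beside 20.6% of all genes: SNHG15 (adjusted p = 3.0e-05), SNHG12 (0.0032), SNHG16 (0.023), SNHG1 (0.028) and GAS5 (0.048, edgeR). The GAS5 call lay close to the threshold: it was lost with RLE or upper-quartile factors or with PEG10 left out, which left 4 genes, and adjusted p ranged from 0.024 to 0.056 over these and the DESeq2 and filter settings. By library, the GAS5 call was lost without any one but gag-pol replicate 3 and NC replicate 3 (adjusted p = 0.059 to 0.16), the SNHG1 call without any gag library or NC replicate 1 or 3 (0.057 to 0.14), and the SNHG16 call without control replicate 3 (0.13) or gag-pol replicate 1 (0.059, edgeR).

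The remaining 4 genes, SNHG6, SNHG7, SNHG8 and ZFAS1, passed no test between constructs. Their pairwise log2 fold changes lay between -0.24 (SNHG8, gag-pol against gag, adjusted p = 0.21) and 0.20 (SNHG6, NC against control, adjusted p = 0.18, edgeR). Normalized counts of SNHG8, the least expressed, ran from 621 to 858, and those of SNHG6 from 1421 to 2228. SNHG7 ranged from 3919 to 6167 and ZFAS1 from 4913 to 8439.

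Among the 3 replicate numbers, which stand for the passages, 7 of the 10 host genes differed, beside 52.8% of all genes tested. ZFAS1, which hosts the SNORD12 snoRNAs, had normalized counts of 4913, 6105 and 7313 in control replicates 1, 2 and 3, and of 5057, 6023 and 8439 with gag. With gag-pol it had 5050, 6225 and 7820, and with NC 5676, 7674 and 6907. Replicate 1 was the lowest library for ZFAS1 in all 4 constructs, and over all constructs replicate 3 less replicate 1 was 0.56 on the log2 scale (adjusted p = 2.0e-05 for the replicate numbers, edgeR). SNHG15 differed the other way, with replicate 2 less replicate 1 at -0.52 (adjusted p = 2.4e-05, edgeR), and replicate 1 was its highest library in every construct. SNHG7 (replicate 3 less replicate 1 at 0.40; adjusted p = 7.5e-05), SNHG6 (0.41; adjusted p = 1.0e-03, edgeR) and SNHG12 (replicate 3 less replicate 2 at 0.43; adjusted p = 2.3e-04) followed. SNHG1 (adjusted p = 0.022) and GAS5 (adjusted p = 0.028, edgeR) passed as well. SNHG5 (adjusted p = 0.31), SNHG8 (0.92) and SNHG16 (0.28, edgeR) did not. Without a single library the GAS5 call was lost for control replicate 1 or 2, gag-pol replicate 1, gag replicate 1 or 3 or NC replicate 1 (adjusted p = 0.052 to 0.16), and the SNHG1 call for control replicate 2 or 3 or gag-pol replicate 2 (0.056 to 0.15, edgeR). Without the replicate number in the model none of the 10 genes was called between constructs, and 3 genes of all those tested (0.0175%) differed among the 4 constructs.

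**Figure D3:**
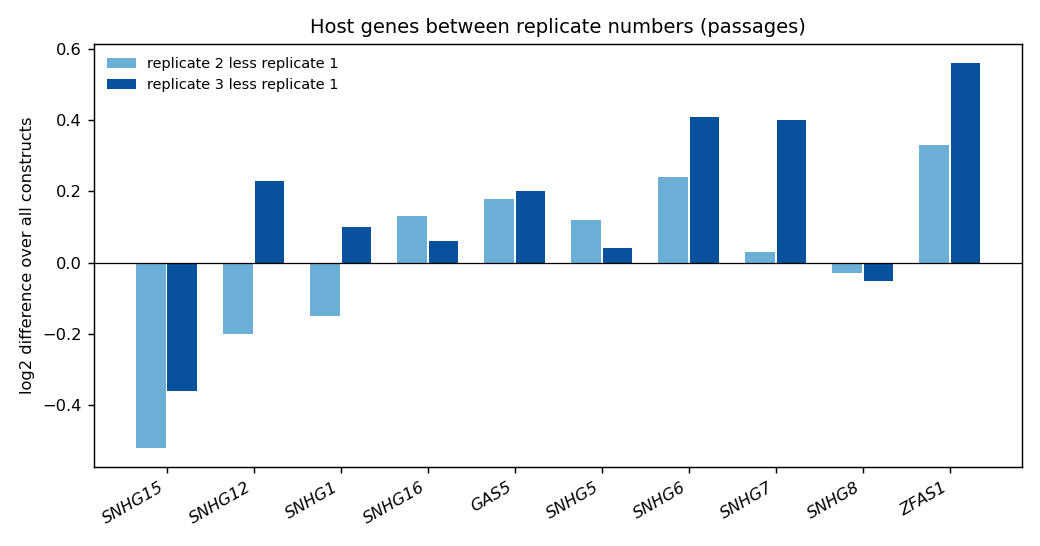
Log2 difference (y axis) of replicate 2 and of replicate 3 from replicate 1, over all constructs, for each of the 10 host genes. ZFAS1 (0.33 and 0.56) and SNHG15 (-0.52 and -0.36) lie farthest from 0, in opposite directions.

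The snoRNA genes within the hosts were counted apart from them. Of the 37, 33 were in the count table and 28 passed the filter, and together they held 11940 counts over all libraries against 460951 for the 10 hosts. SNORA9, the H/ACA snoRNA within SNHG15, was the single one to pass any test between constructs. It had counts of 76, 64 and 88 in control cells, 107, 86 and 94 with gag, 47, 61 and 43 with gag-pol, and 77, 49 and 48 with NC. All gag libraries were above all gag-pol libraries, with a log2 change of -1.08 for gag-pol against gag (SE 0.30; adjusted p = 0.032, edgeR), and gag-pol plus NC lay below gag plus control (log2 -0.74, SE 0.21; adjusted p = 0.014, edgeR). For NC against gag the log2 value was -0.81 and did not pass (adjusted p = 0.061, edgeR). Since the SNORA9 sequence printed above lies in an exon of SNHG15, these counts may be host RNA, which was not tested. The 4 snoRNAs of SNHG12 summed to 229.6 ± 90.8 normalized counts in control (SD, n = 3), 205.4 ± 64.2 with gag, 181.4 ± 40.4 with gag-pol and 183.2 ± 42.3 with NC, and none of them passed a test.

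**Figure D4:**
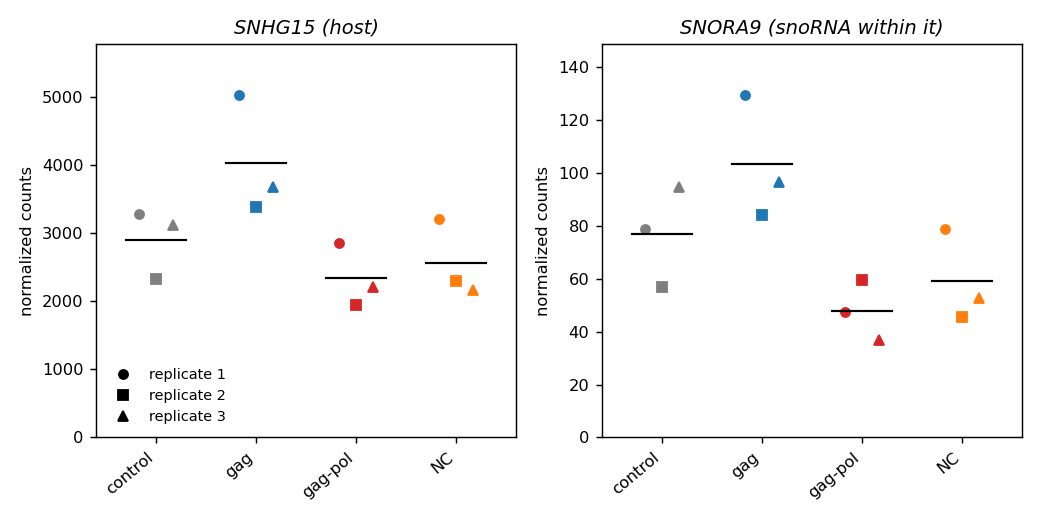
Normalized counts (y axes, from 0) of SNHG15 and of SNORA9, the snoRNA gene within it, in the 12 libraries by construct, with bars at the mean of 3 libraries. In both panels every gag library lies above every gag-pol and NC library, with values up to 5027 for SNHG15 and up to 129.4 for SNORA9.

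Some neighbours overlap the hosts or start close to them, and whether the counting used strand was not given in the sources used here. SLC3A2, the heavy chain of amino acid transporters, starts 51 bases from SNHG1 on the other strand without overlap. SLC3A2 was lower with gag-pol (log2 -0.84, SE 0.11; adjusted p = 3.3e-04, edgeR) and with NC (log2 -0.49; adjusted p = 0.011, edgeR) against control, where SNHG1 had -0.14 and -0.15 and did not pass. Both genes were lower with gag-pol than with gag (SLC3A2 log2 -0.60, adjusted p = 0.0065; SNHG1 log2 -0.30, adjusted p = 0.038, edgeR) and with gag-pol plus NC than with gag plus control (SLC3A2 log2 -0.54, adjusted p = 1.9e-04; SNHG1 log2 -0.22, adjusted p = 0.01, edgeR). TRNAU1AP, a selenocysteine tRNA-associated protein that shares 8 exon bases with SNHG12, fell with gag-pol by 0.40 on the log2 scale (adjusted p = 0.049, edgeR). ZNFX1, opposite ZFAS1, was lower with NC than with gag (log2 -0.48; adjusted p = 0.0041, edgeR), where ZFAS1 had 0.08. PRSS12, opposite SNHG8 with 2487 shared exon bases, was higher with NC than with gag (log2 0.29; adjusted p = 0.028, edgeR), where SNHG8 had -0.11. Among other neighbours, GAS5-AS1 had at most 68 counts in a library, ZBTB37 262, MCMDC2 41, ST6GALNAC2 132 and ST6GALNAC1 28, and none of these passed a test.

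Of 14 other noncoding snoRNA hosts tested, 1 passed with gag-pol against control (beside 11.3% of all genes), none with gag (1.08%; edgeR), 2 with NC (11.2%), 3 for gag-pol against gag (6.46%), 1 for NC against gag (16.9%) and 4 for gag-pol plus NC against gag plus control (24.7%). SNHG11 fell with gag-pol against control (log2 -0.59; adjusted p = 0.0035, edgeR), and with NC SNHG4 rose (log2 0.54; adjusted p = 0.029) and SNHG17 fell (log2 -0.45; adjusted p = 0.016, edgeR). Against gag, SNHG17 was lower with NC (log2 -0.86, SE 0.11; adjusted p = 2.6e-04, edgeR) and with gag-pol (log2 -0.63; adjusted p = 0.0051, edgeR). SNHG9 (log2 -0.58; adjusted p = 0.029) and SNHG11 (log2 -0.46; adjusted p = 0.025, edgeR), the latter named after its values were seen, were also lower with gag-pol than with gag. SNHG17 thus lay lower in both constructs that lowered SNHG15 against gag, and its value for gag against control was 0.41 (adjusted p = 0.081, edgeR). The same gag libraries enter each of these values, so they are not independent. Of 227 protein-coding genes tested with a snoRNA inside their span in GENCODE, 28 rose and 10 fell with NC against control, where 11.2% of all genes were called, and 13 rose and 12 fell with gag-pol, where 11.3% were. The same search of GENCODE found 0 snoRNA genes in GAS5, where RefSeq gave 11, so this list may be incomplete.

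Of the 8 snoRNP core proteins, 1 passed against control with gag-pol (beside 11.3% of all genes) and 1 with NC (11.2%), 3 for NC against gag (16.9%), and 6 for gag-pol plus NC against gag plus control (24.7%), 4 higher and 2 lower. DKC1, the pseudouridine synthase, rose with gag-pol (log2 0.35; adjusted p = 0.0047, edgeR) and with NC (log2 0.24; adjusted p = 0.041, edgeR) against control. Against gag, NC raised FBL, the methyltransferase (log2 0.28; adjusted p = 0.034), and lowered NOP56 (log2 -0.31; adjusted p = 0.011) and NOP58 (log2 -0.22; adjusted p = 0.045, edgeR). With gag-pol plus NC, FBL (log2 0.21; adjusted p = 0.016) and NHP2 (log2 0.23; adjusted p = 0.014) were higher and NOP56 (log2 -0.19; adjusted p = 0.019) and NOP58 (log2 -0.20; adjusted p = 0.0083, edgeR) lower than with gag plus control. Of 12 assembly factors, 3 rose and 3 fell with gag-pol against control and 3 rose and 2 fell with NC, beside 11.3% and 11.2% of all genes called. Among them RUVBL2, a helicase of the assembly complex, rose with both (log2 0.30, adjusted p = 0.019, and log2 0.33, adjusted p = 0.013) and PIH1D1, its adaptor, fell with both (log2 -0.35, adjusted p = 0.0035, and log2 -0.33, adjusted p = 0.0063, edgeR).

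Ribosomal protein mRNAs, the model of TOP transcripts, were called in 1 direction only in the comparisons given here, while the 10 hosts were called in both directions. Of 79 cytosolic ribosomal protein genes, 23 rose and none fell with NC against control (median log2 0.24; 11.2% of all genes called), and 42 rose and none fell for NC against gag (median 0.27; 16.9% of all genes called). With gag-pol against control 1 of the 79 rose (RPS25, log2 0.34; adjusted p = 0.02, edgeR), with a median of 0.13, where 11.3% of all genes were called. Of 15 other genes known as TOP mRNAs, 6 rose with NC against control and 10 rose for NC against gag. Beside them, the same 11.2% and 16.9% of all genes were called. Besides translation factors, these genes include HNRNPA1, NAP1L1, NPM1, TPT1 and VIM. PABPC1 (log2 0.40; adjusted p = 0.0094) and VIM (log2 0.36; adjusted p = 0.0097, edgeR) led for NC against control. For NC against gag, NAP1L1 (log2 0.55; adjusted p = 7.7e-04) and EEF1A1 (log2 0.45; adjusted p = 0.007, edgeR) led. The medians of the 10 hosts in the same comparisons were 0.12 and 0.03, and the medians of all genes tested were 0.004 and -0.006. For gag-pol plus NC against gag plus control, where 24.7% of all genes were called, 53 ribosomal protein genes rose and none fell, and 2 of the hosts rose and 3 fell. Of those hosts, SNHG16 and SNHG1, which moved in opposite directions, both had a pyrimidine run near the start, as did SNHG12, and SNHG5 and SNHG15 did not. The SNHG16 and SNHG1 runs lay wholly upstream of the annotated start, so whether their RNA begins with a TOP tract is not shown.

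**Figure D5:**
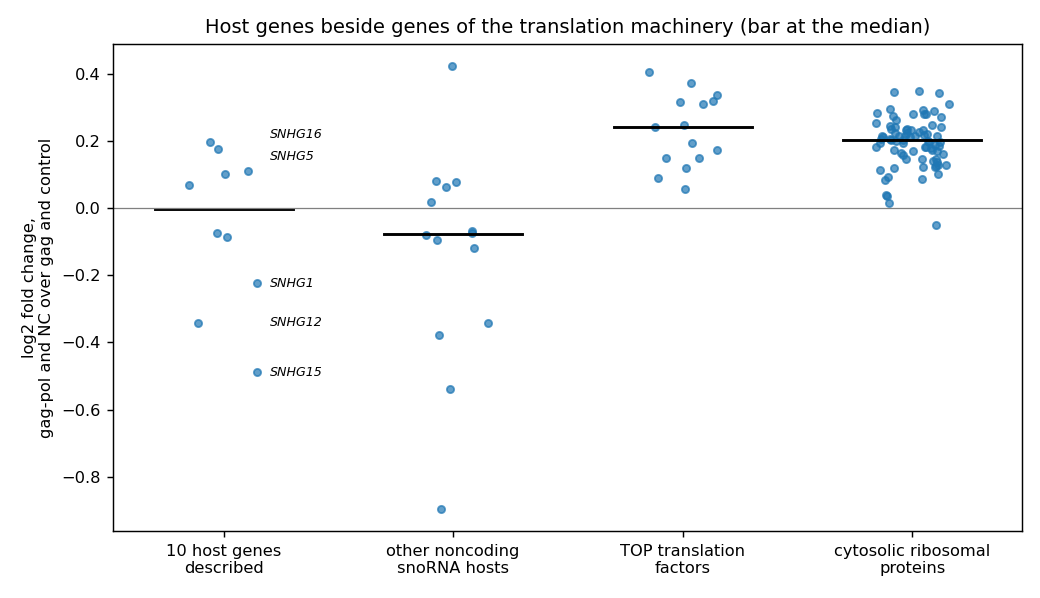
Log2 fold change of gag-pol plus NC over gag plus control (y axis), 1 point per gene, for the 10 host genes, 14 other noncoding hosts, 15 other TOP genes (labelled TOP translation factors, though not all are) and 79 cytosolic ribosomal proteins; bars are medians. The hosts spread from -0.49 (SNHG15) to 0.20 (SNHG16) around 0, while the medians of the other TOP genes and ribosomal proteins lie at 0.24 and 0.20.

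Transcripts known to be degraded by NMD were examined beside the hosts, because several spliced host RNAs are. Of 11 tested, 4 rose and none fell with gag against control, where 1.08% of all genes were called, led by ATF3 (log2 1.02, SE 0.12; adjusted p = 7.7e-04, edgeR) and GADD45A (log2 0.72, SE 0.10; adjusted p = 6.1e-04, edgeR). Against gag, 5 fell with gag-pol (6.46% of all genes called), led by ATF3 (log2 -0.75; adjusted p = 0.0051) and DDIT3 (log2 -0.63; adjusted p = 4.7e-04, edgeR), and 6 fell with NC (16.9% of all genes called), led by GADD45B (log2 -1.47; adjusted p = 0.042) and ATF3 (log2 -0.91; adjusted p = 6.7e-04, edgeR). The genes that led are also known as stress response genes, and the list does not tell decay from induction. SNHG15 likewise rose with gag against control and fell with gag-pol and with NC against gag, while GAS5 passed in none of these comparisons (log2 0.20, -0.09 and 0.08). These comparisons all use the same gag libraries, so that likeness between them is not independent. Against control, 1 of the 11 NMD transcripts rose with gag-pol (11.3% of all genes called) and 2 rose with NC (11.2%), and none fell. Of 17 NMD factors, 2 fell with gag-pol against control (11.3% of all genes called), and 1 rose and 3 fell with NC (11.2%). With gag against control 0 of the 17 were called (1.08%). Against gag, 1 of the 17 fell with gag-pol (6.46%), and 1 rose and 3 fell with NC (16.9%). UPF2 fell with gag-pol (log2 -0.37; adjusted p = 0.0048) and NC (log2 -0.39; adjusted p = 0.0045, edgeR) against control. SMG9 fell with gag-pol (log2 -0.26; adjusted p = 0.032) and SMG8 with NC (log2 -0.36; adjusted p = 0.022, edgeR), while NBAS rose with NC (log2 0.33; adjusted p = 0.021, edgeR).

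The 10 hosts did not move as 1 group over the libraries. After subtraction of the mean of each replicate number, Pearson correlations of log2 CPM over the 12 libraries ran from -0.80 (SNHG12 with SNHG16) to 0.90 (SNHG1 with SNHG15) among the 45 pairs, with a median of 0.23 and 29 above 0. GAS5 was most alike to SNHG6 (0.84), and ZFAS1 also to SNHG6 (0.82). All these values come from the same libraries and carry their depth and construct differences. Over all genes tested, the gene most alike was ETFB for GAS5 (0.97), ST6GALNAC3 for SNHG1 (0.96), MMP24-AS1 for SNHG5 (0.96), URB1-AS1 for SNHG6 (0.95), MYL6B for SNHG7 (0.96) and FRMD5 for SNHG8 (0.94). It was ENTHD2 for SNHG12 (0.98), LOC102606465 for SNHG15 (0.97), DNAJC21 for SNHG16 (0.98) and SEC61B for ZFAS1 (0.96). As the highest of 17176 values over 12 libraries, they describe likeness in these data only. Summed over the 10 genes, normalized counts were 36879 ± 2728 in control cells (SD, n = 3), 40103 ± 4226 in gag, 37587 ± 3381 in gag-pol and 39227 ± 2139 in NC cells, and these ranges overlapped.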

How the data were processed

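RNA was measured in 12 libraries, 3 for each of 4 constructs. The authors aligned paired-end reads of poly(A)-selected libraries to GRCh38.p13 with STAR 2.7.3 and made the deposited table of raw counts per gene with SAMtools 1.8 and featureCounts; the annotation release and strand setting were not given in the sources used here. From these counts, edgeR 4.0.16 (TMM factors, filterByExpr with a minimum count of 10, robust quasi-likelihood fit, Benjamini-Hochberg threshold 0.05) was fitted to all 12 libraries on construct plus replicate number, after the harvest date and construct of the study's own model, leaving 6 residual degrees of freedom. The biological coefficient of variation was 10.7%. Replicates of a construct differed beyond sampling noise (chi-square per degree of freedom at least 32.1).

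The replicate numbers of the labels were taken as the 3 passages the series describes. Deviations from the construct means correlated between libraries of the same number in all 18 pairs (0.14 to 0.54) and at -0.50 to 0.07 in the 36 others. The labels name the control plasmid LifeAct-Dendra2, which was followed; the control arm of the methods bears another plasmid name.

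Positions and exon lengths came from GENCODE 44 and RefSeq, matched by symbol (87.4% of the table, all 10 host genes). Named were all 10 hosts in every comparison, at most 2 called genes per direction of each list, the gene most alike to each host, and genes overlapping a host or starting within 5 kb; some of the last, and a start sequence, are not reported here. The 10 genes, the lists and the tests were chosen with earlier results of these data known. Scripts were tested on simulated data. Alternatives were DESeq2 1.42.0, other scalings and filters, no replicate number, and each library left out. Depth was 30625725 to 45316749 counts per library. p-values measure the spread left after construct and replicate number were fitted, among passages of 1 cell line. Differences between passages that all constructs shared are not part of that spread.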

Additional observations from a re-analysis of the deposited data

How the results depend on the processing

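The pairing by replicate number decided the calls. With no replicate block, 0 of the 10 host genes were called in gag-pol against control (3 with it), gag against control (1), NC against control (3), gag-pol against gag (3), NC against gag (4), gag-pol plus NC against gag plus control (5) and any difference among the 4 constructs (5). Of all genes tested, at most 0.0175% were then called in any of these, so the loss was not particular to the hosts. Leaving out each library or replicate number gave 0 to 3 called genes for gag-pol against control, 0 to 1 for gag against control, 0 to 3 for NC against control, 1 to 3 for gag-pol against gag, 1 to 6 for NC against gag, 0 to 1 for NC against gag-pol, 3 to 5 for gag-pol plus NC against gag plus control, 2 to 7 for any difference among constructs and 3 to 7 for the replicate numbers. Shares of all genes called moved over the same fits. They ran from 2.44% to 13.9%, 0.127% to 4.26% and 2.1% to 13.5% for gag-pol, gag and NC against control. Against gag they ran from 0.0693% to 10.6% (gag-pol) and 1.98% to 20.4% (NC), and for NC against gag-pol from 0% to 3.11%. For gag-pol plus NC against gag plus control they ran from 13% to 23.2%. Among constructs the range was 3.67% to 20.5%, and for replicate numbers 21.2% to 53.4%. ZFAS1 in NC against gag, which did not pass (log2 0.08), changed sign without NC replicate 2 (-0.03) or without replicate 2 in all constructs (-0.06), and passed at 0.27 without replicate 3. Without replicate 3, calls were also gained by ZFAS1 in NC against control (0.27, and 0.30 without NC replicate 3), SNHG6 in NC against gag (0.28) and GAS5 in NC against gag-pol (0.31). DESeq2, RLE or upper-quartile factors, leaving PEG10 out, no filter, a minimum of 10 counts in every library and only the libraries compared kept each count of called genes within 1.5 times. Among constructs the count was 4 with RLE, upper-quartile factors or without PEG10 (GAS5 lost) and 6 with DESeq2 or no filter (SNHG5 gained), and for replicate numbers it was 6 with upper-quartile factors (GAS5 lost). Level orders by length are given with canonical transcripts, a choice made after seeing the data. With 3 libraries per construct, log2 SEs near 0.09 limited what could be detected.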
